A study of Mus musculus with 4 samples.

Results

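Clusters 5 and 4 of the deposited clustering are a monocyte-like and a type 2 conventional dendritic cell (cDC2)-like population of the mouse atherosclerotic aorta. They were taken by the cluster number that the authors deposited for each cell, with no further selection, and hold 209 and 276 cells of 3002 in all. The cells were live CD45+ leukocytes from the aortas of Apoe-/- mice given a western diet for 13 weeks, and their transcripts were counted with the 10x Genomics 3' droplet assay. Apoe-/- mice lack apolipoprotein E and develop atherosclerosis. The series text gives 6 mice, and the titles give 2 biological replicates with 2 libraries each (1-1 and 1-2, 2-1 and 2-2); how the mice were divided over the replicates is not stated. Every library is of the same genotype, diet and tissue, so the comparison is between 2 kinds of cell within the same animals and not between treatments. The authors drew the clusters from the same transcript counts that are compared here, so every p-value below is too small and serves as a description. With both replicates in the fit, a p-value weighs the cluster difference against its change from 1 replicate to the other. A fit without a replicate took the 2 libraries of the remaining replicate as samples. Its p-values weigh the change between these libraries and not between replicates. Most of that spread is borrowed across genes, with 1 residual and a median of 13.2 prior degrees of freedom.

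Classical monocytes are short-lived blood cells that carry the growth factor receptor encoded by Csf1r. They enter inflamed arteries through the chemokine receptor encoded by Ccr2 and can become macrophages there. Type 2 conventional dendritic cells arise from a separate precursor that depends on the receptor encoded by Flt3, take up antigen and present it on major histocompatibility complex (MHC) class II to CD4+ T cells. Both carry Ccr2 and several C-type lectins, and in tissue they are often told apart only by combinations of genes.

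Cluster 5 took 6.96% of all cells (exact binomial interval 6.08 to 7.93) and cluster 4 took 9.19% (8.18 to 10.3). By library, 19, 91, 31 and 68 cells of cluster 5 stood beside 19, 126, 45 and 86 of cluster 4, in the order 1-1, 1-2, 2-1 and 2-2. The ratio of cluster 5 to cluster 4 was 0.800 ± 0.140 (SD, n = 4 libraries), between 0.689 in library 2-1 and 1 in library 1-1. The summed transcripts came to 1470117 UMIs (unique molecular identifiers, 1 for each transcript captured) in cluster 5 and 2267184 in cluster 4. The median cell of cluster 5 held 5859 UMIs and 1851 genes and that of cluster 4 held 7192.5 UMIs and 2115.5 genes, with 4.03% and 3.50% mitochondrial counts. No cell barcode occurred in more than 1 library.

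The authors deposited cluster numbers, and the names used here rest on the 4 genes Ly6c2, Chil3, Cd209a and Flt3. The split of these genes is therefore a description and no separate support for the names. Levels are CPM (counts of a gene per 1000000 counts) of the summed cells, as mean ± SD over n = 2 biological replicates. Ly6c2 (chromosome 15, 75108158 to 75111970, minus strand, GRCm38) encodes the Ly6C surface antigen by which mouse classical monocytes are sorted. In cluster 5 it reached 355, 418, 215 and 403 CPM in libraries 1-1, 1-2, 2-1 and 2-2, and in cluster 4 71.5, 35, 53.9 and 19.1, so that the libraries of the 2 clusters did not overlap. The replicate means were 358 ± 56.8 and 39 ± 5.0 (log2 fold change 3.19 ± 0.15, adjusted p = 2.13e-09, edgeR quasi-likelihood test with Benjamini-Hochberg adjustment, cluster 5 minus cluster 4, ± SE). Each SE of a fold was worked back from the test, as the absolute log2 fold change over the square root of the F statistic. Chil3 (chromosome 3, 106147554 to 106167564, minus strand), a secreted chitinase-like protein of monocytes, had 113, 399, 193 and 315 CPM in the libraries of cluster 5 and 0, 4.66, 1.8 and 0 in those of cluster 4. It differed further than Ly6c2 between the clusters (log2 fold change 6.92 ± 0.29, adjusted p = 5.25e-10). Without library 1-2 its log2 fold change was 8.0 and without replicate 1 it was 7.85.

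Cd209a (chromosome 8, 3743397 to 3748984, minus strand), a C-type lectin of the DC-SIGN family, was the reverse. It had 26, 21.3, 46.1 and 25.2 CPM in the libraries of cluster 5 and 791, 881, 957 and 688 in those of cluster 4, a lower level in cluster 5 in each of the 4 libraries (log2 fold change -4.87 ± 0.17, adjusted p = 9.42e-11). Flt3 (chromosome 5, 147330741 to 147400489, minus strand) had 8.67, 7.74, 3.07 and 15.1 CPM in cluster 5 and 71.5, 85, 77.2 and 92.3 in cluster 4 (log2 fold change -3.23 ± 0.30, adjusted p = 1.65e-06). Reads of the near-identical neighbours Ly6c1 and the other Cd209 genes could be split by the counting, which makes the levels of Ly6c2 and Cd209a uncertain to that extent. Across all 14 clusters Ly6c2 and Chil3 had their highest mean level in cluster 5 and Cd209a in cluster 4, while Flt3 was higher in cluster 12 (162 ± 41.7 CPM) and cluster 11 (149 ± 14.5) than in cluster 4 (83.7 ± 2.1).

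**Figure D1:**
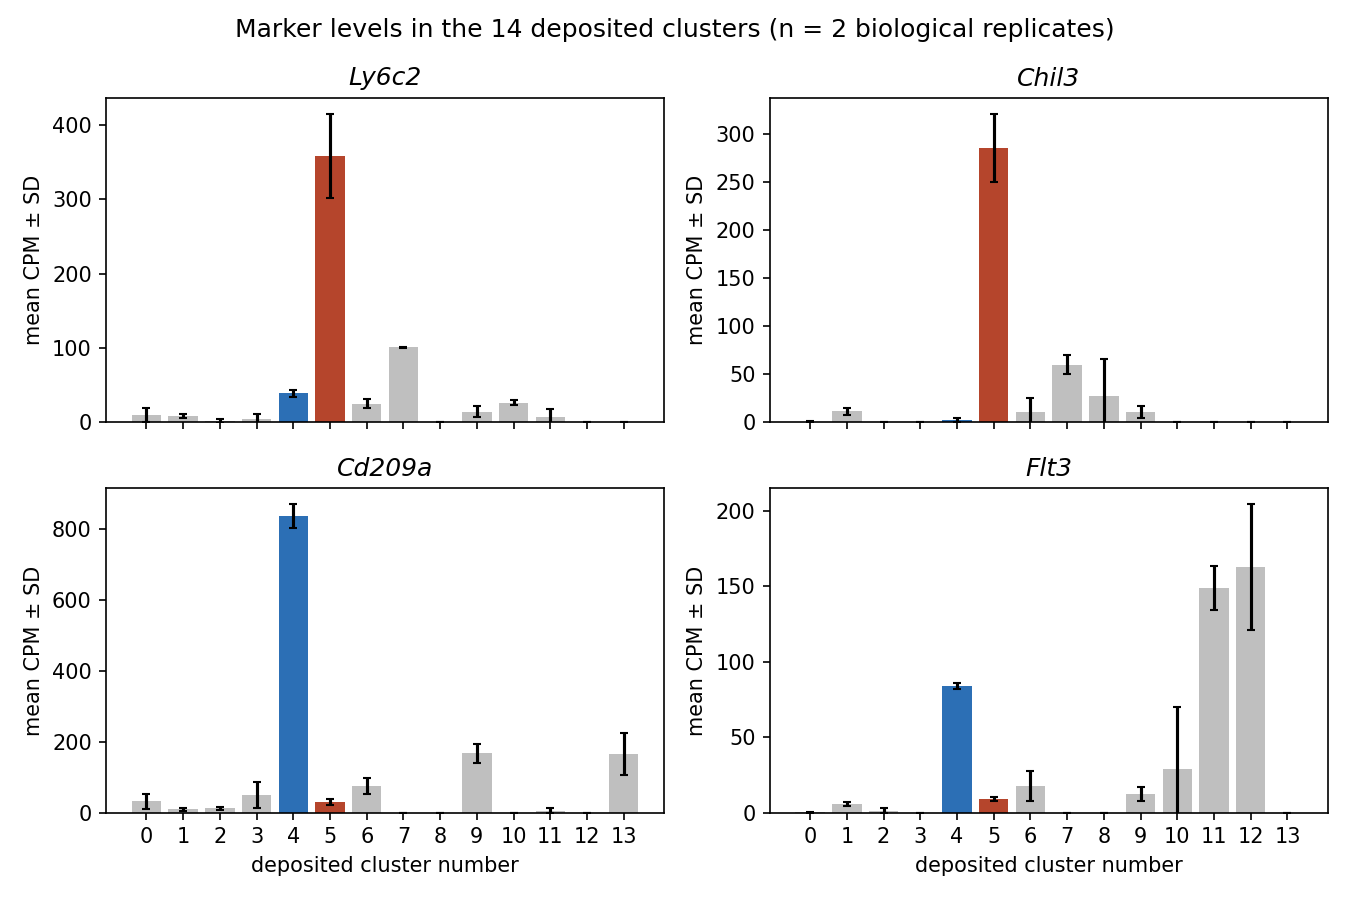
Mean CPM (vertical axis) of 4 marker genes in each of the 14 deposited clusters (horizontal axis); bars are means and error bars SDs over n = 2 biological replicates, with cluster 5 in red and cluster 4 in blue. Ly6c2 and Chil3 peak in cluster 5 at 358 and 285 CPM, Cd209a peaks in cluster 4 at 838, and Flt3 is highest in clusters 12 and 11.

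Of the genes that the series text used to choose macrophages and dendritic cells, those of macrophages leaned to cluster 5. Lyz2, the lysozyme of macrophages and monocytes, was at 13732 ± 654 CPM in cluster 5 and 2471 ± 239 in cluster 4 (log2 fold change 2.47 ± 0.08, adjusted p = 8.32e-11). The high-affinity IgG receptor gene Fcgr1 was at 228 ± 31.1 and 103 ± 12.7 CPM (log2 fold change 1.13 ± 0.16, adjusted p = 9.33e-05), and Csf1r, the receptor for macrophage colony-stimulating factor, at 384 ± 48.5 and 212 ± 13.2 (log2 fold change 0.85 ± 0.13, adjusted p = 0.000203). Adgre1, which encodes the macrophage antigen F4/80, was at 167 ± 24.2 and 91.9 ± 5.91 (log2 fold change 0.85 ± 0.16, adjusted p = 0.00149). Without replicate 2 its log2 fold change was 0.86 with adjusted p = 0.128. Its level in cluster 5 was near those of the fibroblast-gene cluster 9 (170 ± 5.89 CPM) and the neutrophil-gene cluster 7 (189 ± 140). The highest was cluster 2 at 630 ± 105. The dendritic transcription factor gene Zbtb46 had 1 UMI in cluster 5 and 61 in cluster 4, a ratio of pooled CPM of 39.6 times (95% counting interval 6.84 to 1588) in favour of cluster 4. Itgax, which encodes CD11c, was lower in cluster 5, at 81 ± 0.988 against 147 ± 3.84 CPM (log2 fold change -0.86 ± 0.16, adjusted p = 0.00143), but its libraries overlapped, and the adjusted p was 0.146 without library 1-2 and 0.0939 without replicate 2.

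Over all 6833 genes tested, 710 were higher in cluster 5 (10.4% of genes tested) and 614 were lower (8.99%), 19.4% in either direction, at an adjusted p under 0.05. Of these, 402 were higher by a log2 fold change of at least 1 and 302 were lower by as much. The 4 libraries agreed in direction for 643 of the 710 and 575 of the 614. The libraries of the 2 clusters did not overlap for 20.7% of all genes tested. Each count of list members below is to be read beside the shares of 10.4% higher and 8.99% lower. The counts leaned on library 1-2, the largest: without it 407 genes were higher and 225 lower, without replicate 1 the counts were 400 and 299, and without replicate 2 they were 291 and 173. Fewer genes were tested in these fits, 5086, 5076 and 4445. DESeq2, with 2 replicates, called 223 higher and 124 lower, all 347 of them among the genes that edgeR called. Of the 96 genes named in the text as called by edgeR, DESeq2 did not call 7 (Adgre1, Arg2, C1qa, Ccr7, Irf4, Itgax and Plac8) and gave no adjusted p for 4. For 39 of the 96 the fold moved by over 1.5 times without some library or replicate, in no case with a change of sign. Of these, 32 had under 50 UMIs in 1 of the clusters, and the other 7 (C1qa, Ccr7, Ctsd, Cxcl2, Il1rn, Plac8 and Thbs1) had more in both.

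Genes were ranked among those called, with at least 50 CPM on the higher side and the same direction in all 4 libraries. Predicted genes were left out. The 12 furthest above cluster 4 were Vcan, Chil3, Inhba, Plcb1, Arg1, Gpnmb, Hp, Thbs1, F10, Mgst1, Arg2 and Pdpn. Their agreement over the 4 libraries was a condition of entry, which also favours the absence of overlap between libraries seen for all 12. Vcan (chromosome 13, 89655312 to 89742509, minus strand), the matrix proteoglycan versican, had 91, 118, 82.9 and 50.4 CPM in the libraries of cluster 5 and 1 UMI in all of cluster 4, in library 2-2. The ratio of pooled CPM was 199 times (95% counting interval 35.1 to 7918). Thbs1 (chromosome 2, 118111876 to 118127133, plus strand), which encodes the matrix glycoprotein thrombospondin 1, had 3217, 2115, 1440.2 and 1872 CPM in cluster 5 and 4.47, 75.7, 61.1 and 57.3 in cluster 4 (log2 fold change 5.07 ± 0.14, adjusted p = 1.18e-11). All libraries of cluster 5 were far above those of cluster 4, with library 1-1 at the top of one and the bottom of the other, and the log2 fold change was 5.67 without replicate 2. F10, coagulation factor X, was at 345 ± 73.5 against 11.1 ± 2.59 CPM (log2 fold change 4.94 ± 0.19, adjusted p = 2.9e-10), and Hp, the haemoglobin-binding acute-phase protein haptoglobin, at 226 ± 69.6 against 6.07 ± 3.35 (log2 fold change 5.14 ± 0.29, adjusted p = 1.78e-08). Without library 2-1 the log2 fold change of Hp was 6.38 and without replicate 1 it was 4.27.

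Gpnmb, a transmembrane glycoprotein of lipid-laden macrophages, had 86.7, 304, 304 and 285 CPM in the libraries of cluster 5 and 0, 11.7, 1.8 and 1.59 in those of cluster 4 (log2 fold change 5.60 ± 0.31, adjusted p = 1.56e-08). Both arginase genes were in the group: Arg1 had 75 UMIs against 2, a ratio of 57.8 times (95% counting interval 15.5 to 486), and Arg2 was at 55.8 ± 5.19 against 2.31 ± 3.27 CPM (log2 fold change 4.57 ± 0.52, adjusted p = 1.58e-05). Inhba, a subunit of activin, had 148 UMIs against 3, a ratio of 76.1 times (95% counting interval 25.5 to 373), and the phospholipase gene Plcb1 had 78 against 2, a ratio of 60.1 times (95% counting interval 16.1 to 505). The others were the microsomal glutathione transferase gene Mgst1, at 105 ± 23.4 against 3.62 ± 2.73 CPM (log2 fold change 4.83 ± 0.33, adjusted p = 9.01e-08), and Pdpn, which encodes the membrane mucin podoplanin, at 76.7 ± 14.5 against 3.23 ± 4.57 (log2 fold change 4.57 ± 0.45, adjusted p = 3.51e-06). Without library 1-2 the log2 fold changes of Gpnmb, Arg2 and Pdpn were 7.32, 8.07 and 8.55, and without replicate 2 they were 4.80, 3.51 and 3.63; that of Mgst1 was 5.49 without replicate 1. Of the 12, Vcan, Chil3, Inhba, Plcb1, Arg1, Thbs1, F10 and Pdpn had their highest mean level of all 14 clusters in cluster 5. Gpnmb was higher in cluster 8 (1722 ± 216 CPM), Hp and Arg2 in cluster 7 (359 ± 236 and 331 ± 53.9) and Mgst1 in cluster 9 (185 ± 23.5).

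These genes were spread unevenly over the cells of cluster 5. Thbs1 had a UMI in 147 of 209 cells and F10 in 116, and their 10 highest cells held 31.7% and 27.3% of the UMIs. Inhba was in 29 cells and Arg1 in 20, and the 10 highest cells held 83.8% and 84% of their UMIs. Gpnmb was in 42 cells, with 65.8% of its UMIs in the 10 highest. The summed levels of Inhba, Arg1 and Gpnmb therefore describe a small share of the cluster.

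**Figure D2:**
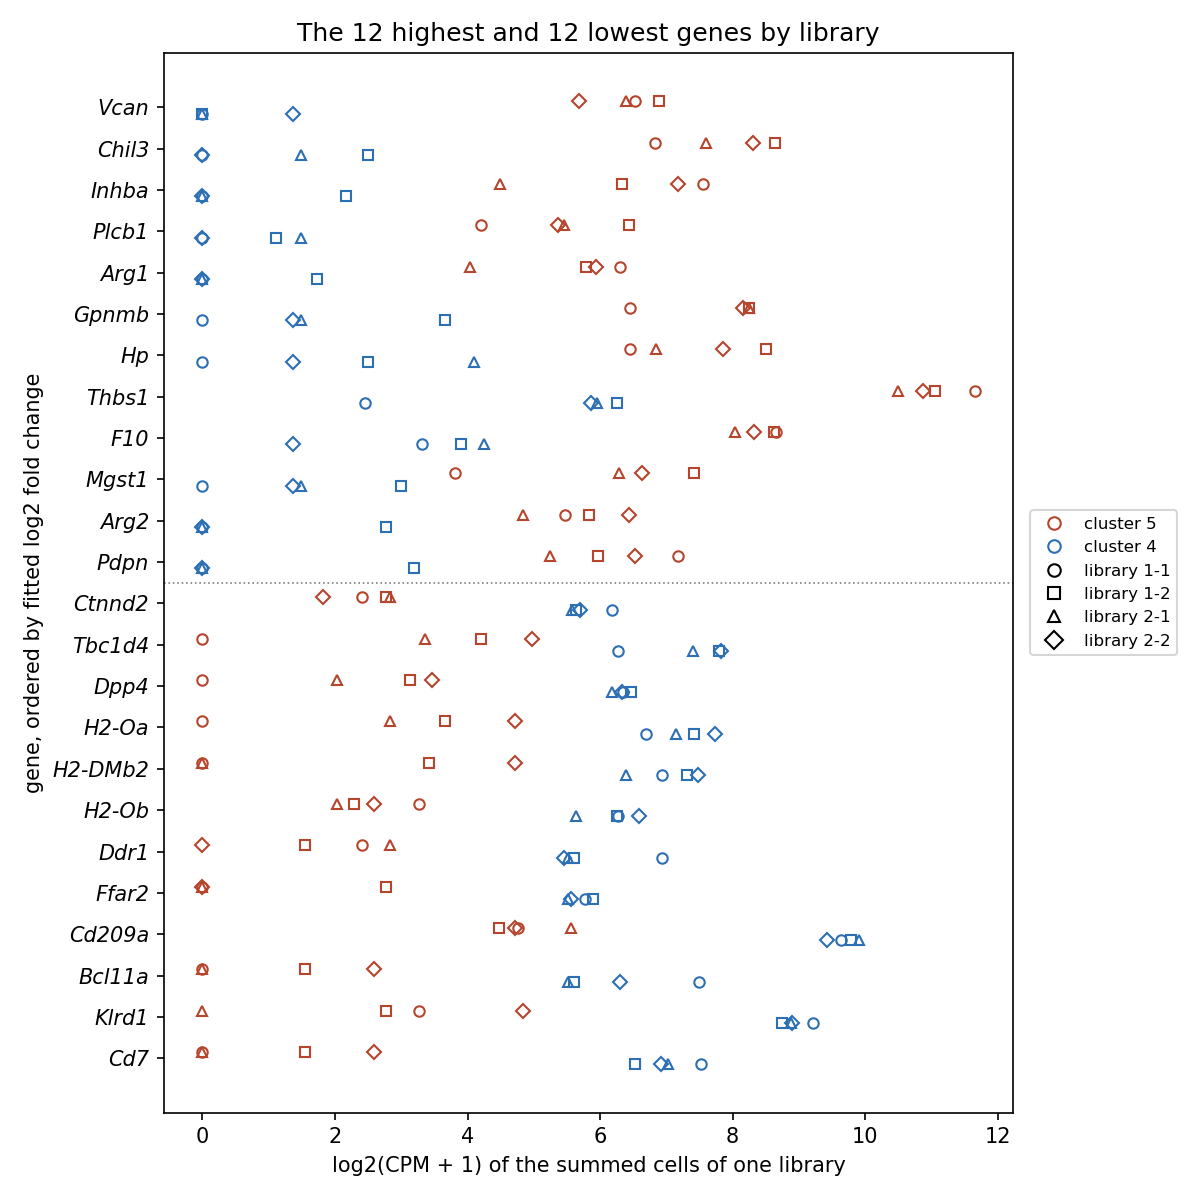
The 12 genes highest and the 12 lowest in cluster 5 relative to cluster 4 (rows, ordered by fitted log2 fold change); the horizontal axis is log2(CPM + 1) and each symbol is 1 library, red for cluster 5 and blue for cluster 4. Only called genes with the same direction in all 4 libraries and at least 50 CPM on the higher side were ranked. For all 24 genes the 4 red symbols do not overlap the 4 blue ones, which this choice favours. Several genes sit at 0 in up to 3 libraries of the lower cluster.

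By the same ranking, the 12 genes furthest below cluster 4 were Cd209a, Klrd1, Cd7, Bcl11a, Ffar2, Ddr1, Ctnnd2, Dpp4, Tbc1d4, H2-Oa, H2-Ob and H2-DMb2. They were lower in all 4 libraries by that rule, and none of their libraries overlapped either. Klrd1 (chromosome 6, 129591782 to 129598775, plus strand), which encodes the natural killer receptor subunit CD94, had 590.2, 426, 469 and 473 CPM in the libraries of cluster 4 and 8.67, 5.8, 0 and 27.7 in those of cluster 5 (log2 fold change -5.41 ± 0.22, adjusted p = 3.6e-10). Without library 2-2 its log2 fold change was -6.61. It had a UMI in 200 of 276 cells of cluster 4 and in 10 of 209 cells of cluster 5. Cd7, a surface protein known from T and NK cells, had 266 UMIs in 78 cells of cluster 4 and 3 UMIs in cluster 5, a ratio of 57.5 times (95% counting interval 19.5 to 281). The T and NK cell marker list was at 0 in all 4 libraries of cluster 4: no UMI of Cd3e, Cd3d, Cd3g, Nkg7, Gzma or Ncr1 was counted there. In cluster 5 that list summed to between 0 and 2.52 CPM.

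The transcription factor gene Bcl11a had 155 UMIs in cluster 4 and 3 in cluster 5, a ratio of 33.5 times (95% counting interval 11.3 to 164). The short-chain fatty acid receptor gene Ffar2 had 116 and 3, a ratio of 25.1 times (95% counting interval 8.37 to 123). Ddr1, a collagen-binding receptor kinase, was at 2.72 ± 0.0656 CPM in cluster 5 and 53.4 ± 13.4 in cluster 4 (log2 fold change -4.23 ± 0.42, adjusted p = 4.15e-06), and Ctnnd2, a catenin, at 4.75 ± 0.848 and 51.3 ± 3.3 (log2 fold change -3.40 ± 0.38, adjusted p = 1.18e-05). The log2 fold change of Ddr1 was -4.88 without library 2-1. Dpp4, the membrane peptidase CD26, was at 6.14 ± 1.11 and 80.9 ± 7.08 (log2 fold change -3.70 ± 0.32, adjusted p = 1.13e-06). Tbc1d4, a Rab GTPase-activating protein, was at 16.4 ± 6.17 and 195 ± 5.53 (log2 fold change -3.58 ± 0.23, adjusted p = 5.55e-08). Klrd1, Cd7, Bcl11a, Cd209a, Ffar2, Ddr1, Ctnnd2 and H2-Oa had their highest mean level of the 14 clusters in cluster 4, whereas Tbc1d4 reached 1935 ± 181 CPM in cluster 12.

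Marker lists of the 2 cell types include the genes that name the clusters, Ly6c2 and Chil3 in one and Cd209a and Flt3 in the other. They were also chosen with earlier results of these data known, so their counts describe the clusters and are no separate support for the names. Of 12 classical monocyte markers, 11 were higher in cluster 5 and none was lower, with a median log2 fold change of 3.46 beside -0.01 over all genes tested. Beyond those above, Clec4e, which encodes the lectin Mincle, was at 678 ± 106 against 38.4 ± 1.85 CPM (log2 fold change 4.13 ± 0.14, adjusted p = 9.42e-11), and Fn1, fibronectin, at 632 ± 131 against 47.1 ± 9.26 (log2 fold change 3.74 ± 0.14, adjusted p = 1.48e-10). The member that was not called was Ccr2, at 329, 594, 393 and 358 CPM in the libraries of cluster 5 and 630.4, 411, 497 and 291 in those of cluster 4 (log2 fold change 0.05 ± 0.11, adjusted p = 0.798). Its libraries overlapped throughout, and it was found in 73.7% of the cells of cluster 5, 72.8% of cluster 4 and 56.0% of the macrophage-gene cluster 1. Of 12 cDC2 markers, 11 were lower in cluster 5 and none was higher (median log2 fold change -2.85); Cd24a was not called, at 39.9 ± 23.1 and 38.3 ± 11.2 CPM. Clec10a, a galactose-binding lectin, was at 73.3 ± 17.5 CPM in cluster 5 and 527 ± 13.9 in cluster 4 (log2 fold change -2.85 ± 0.15, adjusted p = 6.17e-09), and its close relative Mgl2, whose reads may be split with it, at 137 ± 72.7 and 606 ± 77.1 (log2 fold change -2.19 ± 0.17, adjusted p = 2.74e-07).

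MHC class II genes were lower in cluster 5. Of the accessory genes of peptide loading, H2-Oa, H2-Ob and H2-DMb2 fell by more than the chains themselves, while H2-DMa, H2-DMb1, Cd74 and Ifi30 had log2 fold changes of -1.19, -1.05, -1.19 and -0.97, close to those of the chains; the differences between genes were not tested. Of 12 tested members of the class II list, 11 were lower and 1 was higher. H2-Ab1, which encodes the beta chain of I-A, had 7738, 5233, 4910.3 and 4809.8 CPM in the libraries of cluster 5 and 12943, 13689, 13858 and 13384 in those of cluster 4 (log2 fold change -1.33 ± 0.09, adjusted p = 8.06e-08). The libraries of cluster 4 lay close together, and library 1-1 was the highest of cluster 5. The I-E beta chain gene H2-Eb1 was at 4794 ± 957 and 12864 ± 198 CPM (log2 fold change -1.44 ± 0.09, adjusted p = 6.76e-08). H2-Oa and H2-Ob, which encode the H2-O heterodimer that restrains peptide exchange, were at 12.3 ± 6.07 against 167 ± 16.1 and 4.75 ± 0.848 against 74.6 ± 1.68 CPM, log2 fold changes of -3.76 ± 0.25 and -3.94 ± 0.34 (SE; adjusted p = 8.95e-08 and 1.09e-06, edgeR). H2-DMb2, a chain of the peptide exchange factor H2-M, was at 10.3 ± 5.06 against 142 ± 12.8 CPM (log2 fold change -3.78 ± 0.29, adjusted p = 2.41e-07). Without library 2-2 its log2 fold change was -4.79. Ciita, the master coactivator of class II transcription, was at 24.5 ± 1.33 and 84.8 ± 4.21 CPM (log2 fold change -1.79 ± 0.24, adjusted p = 5.96e-05). The member that was higher in cluster 5 was the invariant chain protease gene Ctss (log2 fold change 0.51 ± 0.09, adjusted p = 0.000775), named after its value was seen; without library 1-2 its adjusted p was 0.0713 and without replicate 2 it was 0.104. Reads of the similar H2 genes may be split between them.

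Class II promoters share a short upstream module in which the Y box is bound by the factor NF-Y. The Y box letters CTGATTGG, on either strand, were found in the 250 bases upstream of the start in 3 of the 9 tested members of the class II list with a RefSeq promoter (GRCm38.p6), against 5.86% of the 5320 tested genes with one, 7.71% of those lower in cluster 5 and 4.32% of those higher. The windows of 2 of these members, H2-Aa and H2-Eb1, are shown as examples. They run 5′ to 3′ on the strand of the gene with 30 bases on each side, and capitals mark the Y box.
H2-Aa, chr17:34287837-34287904, minus strand: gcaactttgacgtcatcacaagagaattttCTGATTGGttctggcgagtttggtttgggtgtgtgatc
H2-Eb1, chr17:34305775-34305842, plus strand: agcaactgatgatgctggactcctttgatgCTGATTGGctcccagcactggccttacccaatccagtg
The first base of the Y box lay 51 and 62 bases upstream of the RefSeq start in H2-Aa and H2-Eb1. In H2-Oa, whose window is not printed, the same letters lay 46 bases upstream. These matches describe the sequence and are not evidence of binding in these cells.

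The lower class II level of cluster 5 was uneven from cell to cell. With each cell thinned to 1000 UMIs, H2-Aa, H2-Ab1, H2-Eb1 and Cd74, the most abundant class II transcripts and chosen for that after their values were seen, summed to a median of 9.5 UMIs in the 208 cells of cluster 5 (quartiles 0 and 39.25) and 61 in the 275 cells of cluster 4 (quartiles 46 and 78). In cluster 5, 60 cells had none and 66 had 30 or more. Under 10 such UMIs were found in 104 of 208 cells of cluster 5 (50%, exact binomial interval 43.0 to 57.0) and in 5 of 275 cells of cluster 4 (1.82%, 0.593 to 4.19), counting error only. The share in cluster 5 was 42.1%, 51.6%, 35.5% and 56.7% in libraries 1-1, 1-2, 2-1 and 2-2, and in cluster 4 it ran from 0% to 5.26%. The libraries of the 2 clusters did not overlap in this share. The limit of 10 divides a range, not cell types, and 19 cells of cluster 5 lay between 5 and 14.

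Cells of cluster 5 on either side of that limit differed in other genes. At 1000 UMIs, Ly6c2 was found in 38 of 104 cells under 10 class II UMIs (36.5%, 27.3 to 46.6) and in 10 of 104 at or above it (9.62%, 4.71 to 17.0). Plac8, a monocyte marker, was found in 66.3% (56.4 to 75.3) and 37.5% (28.2 to 47.5). Chil3 was found in 26.0% (17.9 to 35.5) and 13.5% (7.56 to 21.6), with intervals that overlap. Lyz2 was found in 93.3% and 94.2%. C1qa, a complement gene of macrophages, went the other way, in 12.5% and 48.1%. Cd209a was in 0 of 104 cells under the limit, which allows up to 3.48%, and in 5 of 104 above it (4.81%). These shares pool the cells of 4 libraries, which differed in the share under the limit, and are a description with no test.

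**Figure D3:**
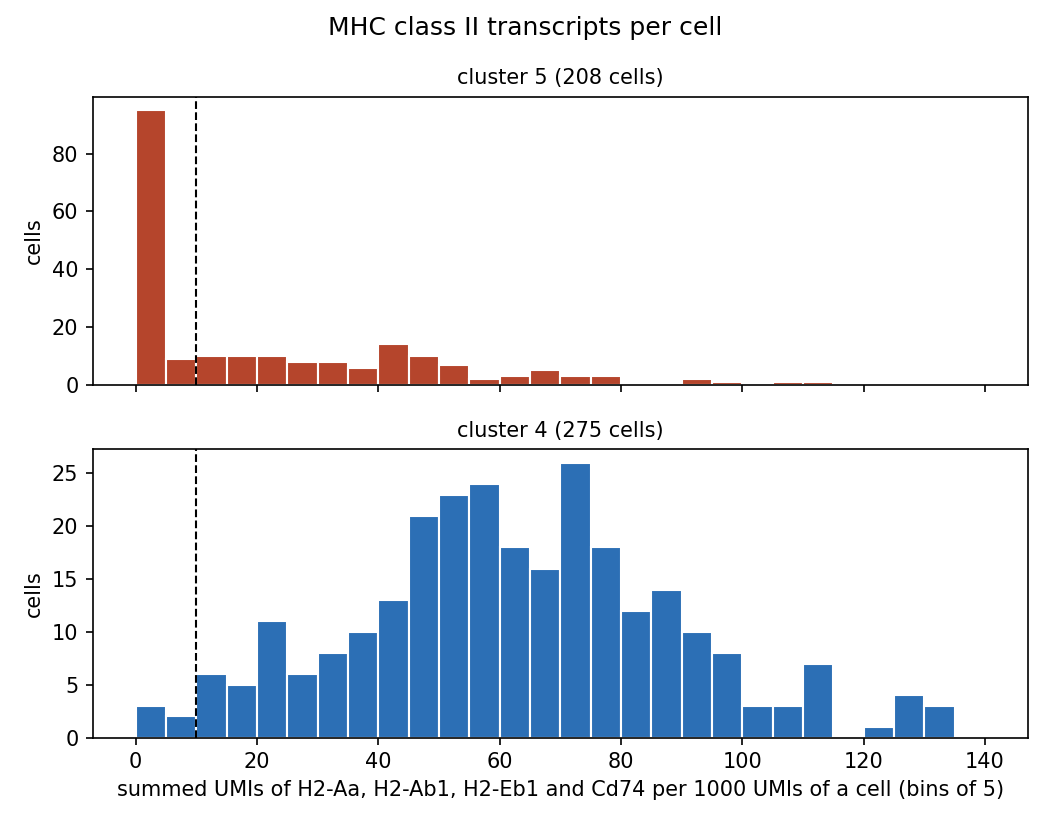
Number of cells (vertical axis) by the summed UMIs of H2-Aa, H2-Ab1, H2-Eb1 and Cd74 out of 1000 UMIs of the cell (horizontal axis, bins of 5), for cluster 5 above and cluster 4 below; the dashed line is at 10. In cluster 5, 104 of 208 cells lie under the line and the rest spread up to 111, whereas in cluster 4 only 5 of 275 cells lie under it.

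Transcription factors of the 2 lineages were divided, with 7 of 23 tested higher in cluster 5 and 8 lower. Cebpb, a C/EBP factor of inflammatory myeloid genes, had 1799, 1486, 2217 and 2137 CPM in the libraries of cluster 5 and 219, 332, 330.4 and 271 in those of cluster 4, with no overlap (log2 fold change 2.61 ± 0.12, adjusted p = 1.61e-09). The inhibitors of DNA binding Id3 and Id2 were at 426 ± 106 against 63.4 ± 9.69 and 536 ± 78.3 against 186 ± 2.41 CPM, log2 fold changes of 2.73 ± 0.17 and 1.52 ± 0.12 (SE; adjusted p = 4.35e-08 and 3.63e-07, edgeR). Irf4, a factor of cDC2, was at 10.1 ± 4.57 against 36.9 ± 3.86 CPM (log2 fold change -1.85 ± 0.37, adjusted p = 0.00219), with adjusted p = 0.19 without replicate 2. Without library 1-2 the log2 fold change of Irf4 was -2.69. Spi1, which encodes the shared myeloid factor PU.1, did not pass (log2 fold change -0.15 ± 0.11, adjusted p = 0.38), nor did Nr4a1 (log2 fold change 0.17 ± 0.11, adjusted p = 0.319).

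A C/EBP motif, written TTGCNNAA and searched on both strands of the same 250 bases, was found in 12.4% of promoters of genes higher in cluster 5, 10.9% of genes lower and 9.44% of all tested genes, and in 14.2% of genes higher by a log2 fold change of at least 1. The letters GAGGAAGT of PU.1, the product of Spi1, were found in 4.68%, 6.00% and 3.68% of genes higher, lower and tested. Those of an interferon response element were found in 5.23%, 5.78% and 3.63%. Over all 27025 genes with a promoter, tested or not, the C/EBP motif was found in 10.8%. It was also found upstream of Ffar2 and Tbc1d4, which were lower in cluster 5. Windows of 2 genes that were higher in cluster 5 are printed to show the match in its context, with its letters or their reverse complement in capitals, on the strand of the gene and 5′ to 3′.
Clec4e, chr6:123289900-123289967, minus strand: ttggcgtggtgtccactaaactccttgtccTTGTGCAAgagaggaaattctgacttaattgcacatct
Inhba, chr13:16011754-16011821, plus strand: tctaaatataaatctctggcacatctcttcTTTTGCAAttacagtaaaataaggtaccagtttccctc
The match lay 66 and 67 bases upstream of the RefSeq start in Clec4e and Inhba, counted at its first base. The shares are descriptions, without a test.

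Pattern recognition receptors differed by member. C-type lectins were split evenly, with 5 of 14 higher in cluster 5 and 5 lower. Clec4d, the partner of Clec4e in binding glycolipids, was at 335 ± 48.7 against 19.3 ± 9.35 CPM (log2 fold change 4.13 ± 0.19, adjusted p = 1.61e-09), while Cd209d was at 2.74 ± 1.99 against 43 ± 7.13 (log2 fold change -3.92 ± 0.48, adjusted p = 2.91e-05). The other 4 did not pass. Without library 1-2 the log2 fold change of Clec4d was 4.98, and that of Cd209d was -3.13 without replicate 1 and -5.11 without replicate 2. Of 10 toll-like receptor and signalling genes, Cd14, the lipopolysaccharide co-receptor, and Tlr2 were higher, at 2351 ± 258 against 805 ± 77.3 CPM (log2 fold change 1.54 ± 0.11, adjusted p = 1.3e-07) and 458 ± 44.8 against 170.1 ± 23.4 (log2 fold change 1.43 ± 0.12, adjusted p = 5.58e-07). The adaptor gene Myd88 was at 60.4 ± 11.1 and 72.1 ± 7.76 CPM and did not pass (log2 fold change -0.26 ± 0.20, adjusted p = 0.429).

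Of 20 tested genes of a list of Fc receptors, relatives of the Trem and Sirp families, adaptors with an immunoreceptor tyrosine-based activation motif (ITAM) and kinases, 15 were higher in cluster 5 and 1 was lower. Trem1, which amplifies inflammatory signalling, was at 83 ± 3.92 against 11.2 ± 5.09 CPM (log2 fold change 2.89 ± 0.28, adjusted p = 3.45e-06), and Trem3 at 31.3 ± 3.1 against 3.07 ± 0.426 (log2 fold change 3.28 ± 0.49, adjusted p = 0.000188). Without library 1-2 the log2 fold change of Trem1 was 3.48. Sirpb1c was at 109.8 ± 32 against 25.9 ± 2.7 CPM (log2 fold change 2.05 ± 0.24, adjusted p = 1.81e-05). The member that was lower was Fcgrt, the neonatal Fc receptor, named after its value was seen, at 77.8 ± 23 against 194 ± 28 CPM (log2 fold change -1.33 ± 0.16, adjusted p = 2.32e-05). The kinase gene Syk did not pass (log2 fold change 0.08 ± 0.13, adjusted p = 0.746). Among 17 growth factor and cytokine receptors, 7 were higher and 2 lower; Csf3r, the receptor for granulocyte colony-stimulating factor, was at 71.3 ± 12.7 against 17.2 ± 0.484 CPM (log2 fold change 2.03 ± 0.25, adjusted p = 2.98e-05), opposite to Flt3.

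Of 18 chemokine ligand genes tested, 7 were higher in cluster 5, 6 were lower and 5 did not pass. The neutrophil attractants Cxcl2 and Cxcl3 were higher in cluster 5. Cxcl2 had 7612, 5281, 7689 and 6904 CPM in the libraries of cluster 5 and 769, 2101, 998 and 1741 in those of cluster 4, without overlap (log2 fold change 2.04 ± 0.12, adjusted p = 3.18e-08), and Cxcl3 was at 51.1 ± 9.89 against 2.23 ± 0.767 CPM (log2 fold change 4.45 ± 0.44, adjusted p = 3.35e-06). Without library 1-2 their log2 fold changes were 2.85 and 5.22, and that of Cxcl3 was 3.82 without library 2-2 and 3.81 without replicate 2. Ccl17 and Ccl5, which attract T cells, were lower in cluster 5. Ccl17 was at 8.83 ± 0.749 against 82.6 ± 2.19 CPM (log2 fold change -3.21 ± 0.30, adjusted p = 1.77e-06), but only 16 cells of cluster 4 carried it and the 10 highest held 96.3% of its UMIs. Ccl5 was at 10.9 ± 4.11 against 66.7 ± 10.7 CPM (log2 fold change -2.61 ± 0.29, adjusted p = 1.34e-05), and the libraries overlapped for both; without library 2-1 their log2 fold changes were -2.60 and -3.68, and without library 2-2 they were -3.86 and -1.97. Interleukin 1 genes were 3 higher and 2 lower of 12 (25% and 16.7%), beside 10.4% and 8.99% of all genes tested. Il1b did not pass the threshold, at 6212 ± 1029 and 5519 ± 185 CPM (log2 fold change 0.16 ± 0.09, adjusted p = 0.252). Without library 2-2 its log2 fold change was 0.44 with adjusted p = 2.58e-05. Its secreted antagonist Il1rn was at 526 ± 177 against 64.9 ± 10.8 CPM (log2 fold change 2.97 ± 0.19, adjusted p = 5.05e-08), and the decoy receptor gene Il1r2 was the reverse, at 126 ± 3.99 against 456 ± 20.5 (log2 fold change -1.86 ± 0.13, adjusted p = 8.81e-08). Without replicate 2 the log2 fold change of Il1rn was 3.59.

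Genes of lipid uptake, storage and efflux were higher in cluster 5 where they were called, 12 of 19 tested and none lower, with a median log2 fold change of 1.25. The cholesterol exporter gene Abca1 had 347, 275, 286 and 307 CPM in the libraries of cluster 5 and 40.2, 100.2, 70.04 and 50.9 in those of cluster 4, with no overlap (log2 fold change 2.01 ± 0.16, adjusted p = 3.07e-07). The scavenger receptor gene Msr1 was at 103 ± 8.11 against 14.7 ± 9.03 CPM (log2 fold change 2.77 ± 0.29, adjusted p = 7.25e-06), and Nr1h3, the sterol-sensing receptor LXR alpha, at 55.6 ± 12.1 against 5.97 ± 7.25 (log2 fold change 3.24 ± 0.43, adjusted p = 6.09e-05). Fabp4, a fatty acid carrier, had 61 UMIs in cluster 5 and 2 in cluster 4, a ratio of 47 times (95% counting interval 12.5 to 397), and its 10 highest cells held 88.5% of its UMIs in cluster 5. The lipase gene Lpl did not pass (log2 fold change 1.25 ± 0.59, adjusted p = 0.171). It was called without replicate 1 (log2 fold change 3.98, adjusted p = 0.000144), library 1-2 (3.26, adjusted p = 0.00469) or library 2-2 (0.95, adjusted p = 0.00305), and with no filter on low counts (1.23, adjusted p = 8.81e-07). Leaving out replicate 1 also took Nr1h3 to 5.40 and Msr1 to 2.17, and leaving out replicate 2 took them to 2.59 and 3.67, all still called; Nr1h3 was at 4.83 without library 1-2.

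Lysosomal genes went the same way, with 16 of 22 tested higher in cluster 5 and none lower. The proteases Ctsd, Ctsb and Ctsl had log2 fold changes of 2.15 ± 0.19, 1.65 ± 0.14 and 1.63 ± 0.17 (SE; adjusted p = 1.14e-06, 6.44e-07 and 7.66e-06, edgeR). Ctsd reached 776, 1205, 1499 and 1073 CPM in the libraries of cluster 5 and 139, 414, 196 and 173 in those of cluster 4. Lamp1, a lysosomal membrane protein, was at 870.1 ± 10.4 against 314 ± 28.3 CPM (log2 fold change 1.47 ± 0.11, adjusted p = 1.67e-07). Without replicate 1 the log2 fold change of Ctsd was 2.77. Laptm5 did not pass (log2 fold change -0.16 ± 0.09, adjusted p = 0.296). Of 8 iron and haem genes 3 were higher and 1 lower: Slc11a1, the phagosomal metal transporter, was at 152 ± 11.7 against 16.9 ± 4.83 CPM (log2 fold change 3.17 ± 0.22, adjusted p = 1.37e-07; log2 fold change 3.93 without library 1-2), and the ferritin genes Fth1 and Ftl1 had log2 fold changes of 1.02 ± 0.07 and 1.23 ± 0.10 (SE; adjusted p = 1.23e-07 and 8.12e-07, edgeR).

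Complement and coagulation genes were 11 higher and 2 lower of 15. Beside Thbs1 and F10, C3, the central complement component, was at 116 ± 47.2 against 10.6 ± 1.93 CPM (log2 fold change 3.41 ± 0.26, adjusted p = 2.26e-07), and Plaur, the urokinase receptor, at 469 ± 27.6 against 219 ± 19 (log2 fold change 1.10 ± 0.11, adjusted p = 5.9e-06). F7, coagulation factor VII, had 27 UMIs against 2, a ratio of 20.8 times (95% counting interval 5.23 to 181). Metalloproteinases were 6 higher and none lower of 11. Mmp19 was at 151 ± 82 against 10.6 ± 0.568 CPM (log2 fold change 3.76 ± 0.28, adjusted p = 2.19e-07) and Mmp14 at 144 ± 7.32 against 37.7 ± 6.31 (log2 fold change 1.93 ± 0.19, adjusted p = 4.1e-06). Without replicate 1 the log2 fold change of Mmp19 was 3.05. Mmp8, the neutrophil collagenase, had 43 UMIs in 26 cells of cluster 5 and 0 in cluster 4; against a floor of 3 counts over cluster 4 it was at least 22.1-fold higher in cluster 5.

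**Figure D4:**
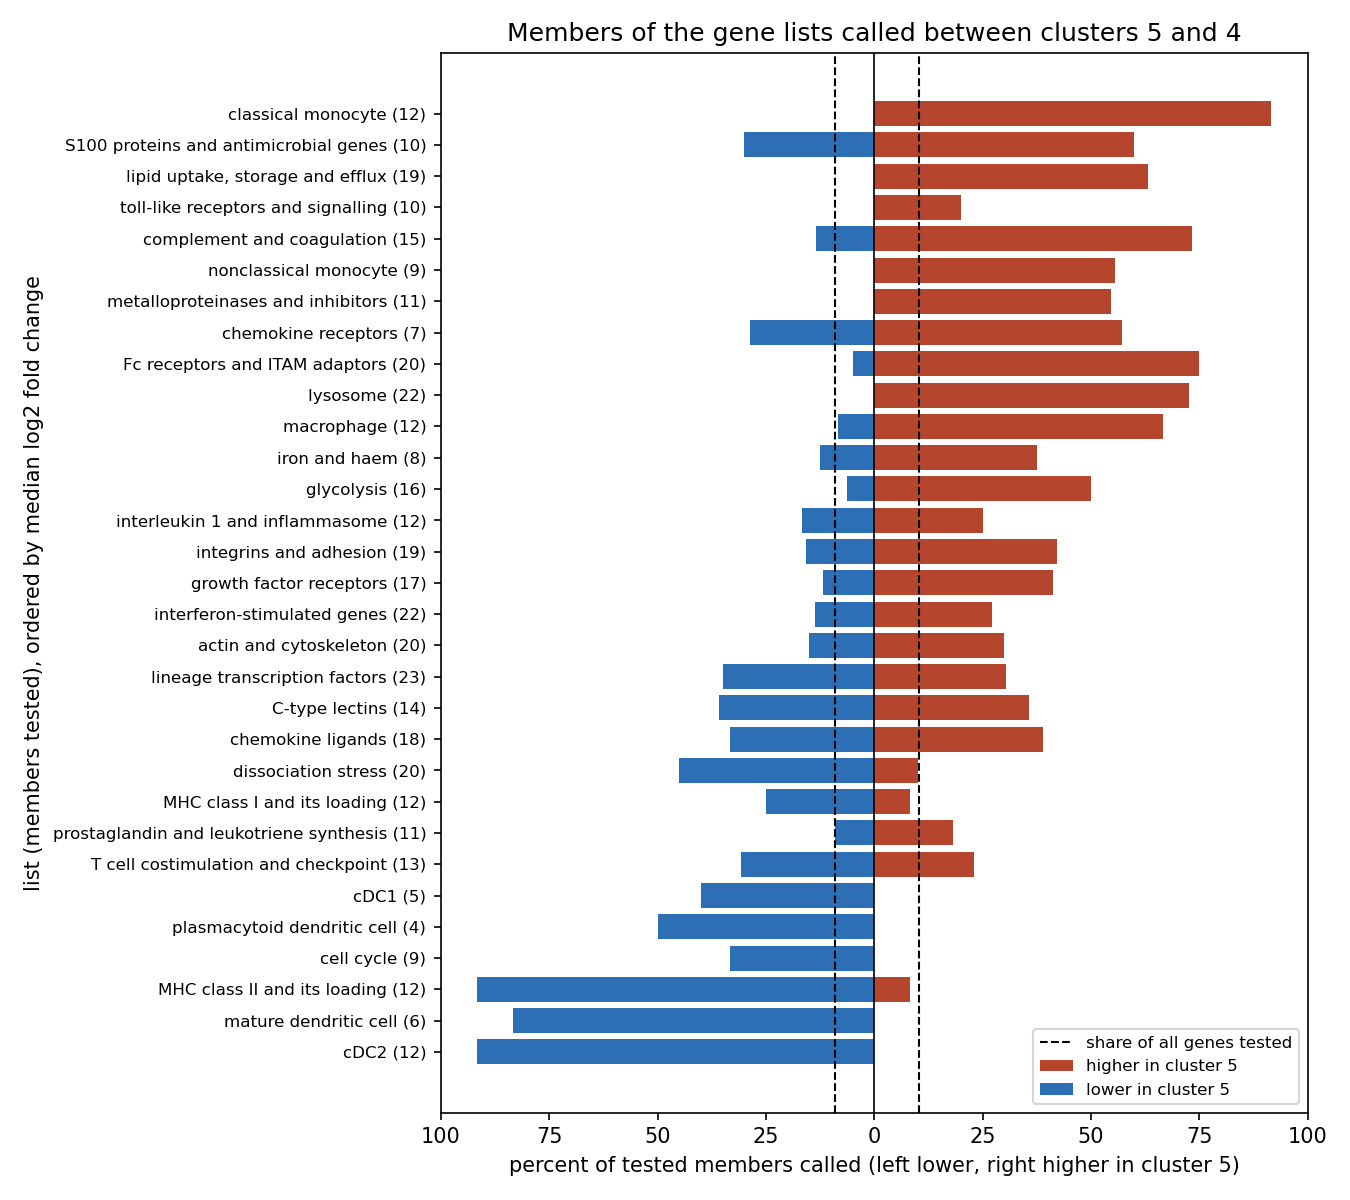
Percent of the tested members of each list (rows, number tested in parentheses, lists with at least 4 tested) that were called higher in cluster 5 (red, to the right) or lower (blue, to the left), ordered by the median log2 fold change; dashed lines mark the shares over all genes tested, 10.4% and 8.99%. The classical monocyte list lies at the top with 11 of 12 higher, and the cDC2, mature dendritic and MHC class II lists lie at the bottom.

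Markers of neighbouring cell types were present in both clusters to differing degrees. Of 9 nonclassical monocyte markers, 5 were higher in cluster 5 and none lower. Treml4 was at 36.7 ± 4.89 against 2.61 ± 1.08 CPM (log2 fold change 3.72 ± 0.48, adjusted p = 5.09e-05) and the integrin gene Itgal at 63.1 ± 14.8 against 6.99 ± 2.05 (log2 fold change 3.12 ± 0.33, adjusted p = 7.66e-06), whereas Nr4a1 was at 645 ± 214 and 562 ± 106. Without replicate 2 the log2 fold change of Itgal was 3.77. Treml4 or Ace was found in 50 cells of cluster 5, of which 15 (30%) also had Ly6c2, beside 75 of the other 159 (47.2%). Of 12 macrophage markers, 8 were higher and 1 lower, and their summed level ran from 5137 to 7557 CPM in the libraries of cluster 5 and from 1909 to 4694 in those of cluster 4. The complement gene C1qa was at 1461 ± 23.7 CPM in cluster 5 and 1087 ± 51.7 in cluster 4, both below the neutrophil-gene cluster 7 (1933 ± 329) and the fibroblast-gene cluster 9 (2378 ± 273), with cluster 0 at 7604 ± 7.78. The part of free RNA in the macrophage markers of either cluster was not tested.

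Mature dendritic markers were 5 lower and none higher of 6. Ccr7, the chemokine receptor of migrating dendritic cells, was at 44.7 ± 36.7 against 246 ± 38.9 CPM (log2 fold change -2.48 ± 0.30, adjusted p = 2.58e-05); without replicate 1 the log2 fold change was -1.64 with adjusted p = 0.0766. It was found in 71 of 276 cells of cluster 4 and in 9 of 209 cells of cluster 5, where 42 of its 65 UMIs came from 1 cell. Siglech, a plasmacytoid dendritic marker, was at 3.41 ± 1.04 against 40.7 ± 31.3 CPM (log2 fold change -3.52 ± 0.49, adjusted p = 0.000108), from 22 cells of cluster 4 of which 1 held 32 of the 90 UMIs. The log2 fold change of Siglech was -2.64 without library 1-1 and -4.62 without replicate 2, and that of Ccr7 was -3.87 without library 2-1. Of the neutrophil markers, S100a9 had 25 UMIs in cluster 5, all in 1 cell, and none in cluster 4. The B cell list summed to between 3.07 and 7.74 CPM in the libraries of cluster 5 and between 4.47 and 18.6 in those of cluster 4, and the fibroblast list to between 46.1 and 251 and between 25.1 and 115.

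The other lists are given by their counts beside the background of 10.4% higher and 8.99% lower. Interferon-stimulated genes were 6 higher and 3 lower of 22: Ifi204, a DNA sensor of the interferon response, was at 213 ± 11.2 against 61.9 ± 9.12 CPM (log2 fold change 1.77 ± 0.16, adjusted p = 1.99e-06), and Ifitm3 did not pass (log2 fold change 0.08 ± 0.09, adjusted p = 0.587). MHC class I genes were 1 higher and 3 lower of 12, and the class I heavy chain genes H2-D1 and H2-K1 did not pass, with log2 fold changes of 0.01 ± 0.09 and -0.20 ± 0.09 (SE). Costimulatory genes were 3 higher and 4 lower of 13, with Tnfsf9, the ligand of 4-1BB, at 120.4 ± 3.86 against 379.6 ± 48.7 CPM (log2 fold change -1.66 ± 0.13, adjusted p = 4.81e-07) and Cd86 at 364 ± 54.9 and 444 ± 64.4 (log2 fold change -0.29 ± 0.11, adjusted p = 0.0785). Integrins and adhesion genes were 8 higher and 3 lower of 19, with Cd44, the hyaluronan receptor, at 898 ± 119.8 against 278 ± 29.7 (log2 fold change 1.69 ± 0.11, adjusted p = 4.72e-08). Glycolysis genes were 8 higher and 1 lower of 16, and cell cycle genes 3 lower and none higher of 9. Dissociation stress genes, which cell isolation can induce, were 9 lower and 2 higher of 20, and their summed levels overlapped between the clusters, from 19239 to 32371 CPM in the libraries of cluster 5 and from 23329 to 32556 in those of cluster 4; their part in other differences was not tested.

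Single marker genes had no UMI in many cells, and whether they were silent or not captured there was not tested. Ly6c2 was found in 43.1% of the cells of cluster 5, 12% of cluster 4 and 2.03% of the macrophage-gene cluster 1, whose median cell held 5115 UMIs; at 1000 UMIs per cell the shares were 23.1%, 4.36% and 0.738%. Chil3 was found in 36.8%, 0.725% and 2.21%, and at 1000 UMIs in 19.7%, in 0 of 275 cells (which allows up to 1.33%) and in 1.66%. Cd209a was found in 6.70% of cluster 5, 73.6% of cluster 4 and 2.21% of cluster 1, and at 1000 UMIs in 2.40%, 44% and 0.185%. Flt3 was found in 5.74%, 43.1% and 2.76%, and at 1000 UMIs in 0.481%, 9.82% and 0.185%. A monocyte gene (Ly6c2 or Chil3) and a dendritic gene (Cd209a or Flt3) were found together in 8 of 209 cells of cluster 5 (3.83%, exact binomial interval 1.67 to 7.40) and in 27 of 276 cells of cluster 4 (9.78%, 6.55 to 13.9). At 1000 UMIs per cell they were together in 0 of 208 cells of cluster 5 (exact interval up to 1.76%) and in 7 of 275 cells of cluster 4 (2.55%, 1.03 to 5.17). With all UMIs, neither kind was found in 72 of 209 cells of cluster 5 and 37 of 276 cells of cluster 4. At 1000 UMIs per cell neither was found in 130 of 208 and 139 of 275 cells. Over the 12 monocyte and 12 cDC2 markers, 199 of 209 cells of cluster 5 had more monocyte than cDC2 UMIs, and so did 93 of 276 cells of cluster 4, whose median cell held 9 monocyte-list and 17.5 cDC2-list UMIs. The 2 lists were not balanced for level. The monocyte list holds Ccr2 and Plac8, found in 72.8% and 54.3% of the cells of cluster 4, so these sums do not compare how cleanly the clusters are sorted.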

How the data were processed

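Live CD45+ aortic cells were sequenced in 4 libraries of 1 group. Per the labels' protocols the authors used Cell Ranger 3.0.2 and the mm10 build; Seurat 3.1.1 is named in the submitters' processing notes; clustering settings, cell filters and doublet handling are not stated there, and no doublets were called here. The deposited matrix of unnormalised UMI counts covers 3002 cells and 18825 genes, and the deposited cell table holds the authors' cluster numbers and the percent of mitochondrial counts. Counts of clusters 5 and 4 were summed per biological replicate and fitted with edgeR 4.0.16 in R 4.3.3 (filterByExpr, TMM, glmQLFit, glmQLFTest; 6833 genes, 4 sums, 1 residual degree of freedom), with the replicate as a block. The pairing comes from the design, since both clusters of a replicate come from the same libraries; over 6833 genes the replicate differences of the clusters had r = 0.0534. Tests are two-sided, Benjamini-Hochberg adjusted and called at 0.05. CPM were computed here from the deposited counts, and a deposited table of log-normalised values was not used.

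Members and gene lists were chosen with earlier results of these data known. Named genes are the 12 highest and 12 lowest called genes with the same direction in 4 libraries and at least 50 CPM on the higher side, 10 markers, and members of the lists: called ones with the largest fold first, then uncalled ones by level. A ratio of pooled CPM with a counting interval stands for genes with 1 to 3 counts on a side. Coordinates are from GENCODE M21 (GRCm38), and promoters, for 5320 of the genes tested, from RefSeq (GRCm38.p6). Alternatives were other scaling (DESeq2 1.42.0 size factors), DESeq2, other filters, no block, libraries as samples, a spread shared over 14 clusters, cells thinned to 1000 UMIs, cells without the 5% deepest, and each library or replicate left out. Intervals and floors cover counting error only.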

Additional observations from a re-analysis of the deposited data

Results flagged for a closer look

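Values in the 4 libraries of a cluster were searched for 1 library far from the other 3. The search took the 12 highest and 12 lowest genes, the 10 markers, summed lists, cell shares and depth. Single list members named elsewhere in the text were not searched. The gap to the nearest other library over the whole range was set against Dixon's 95% critical value. Of 143 groups of 4 libraries, 14 (9.79%) passed, where chance flags about 1 in 20 groups of continuous values. In 8 of the 14 the other 3 libraries were at 0, so that any UMI passes, and that rate is no comparison for them. In cluster 5, Gpnmb was low in library 1-1 at 86.7 CPM, with the other libraries between 285 and 304. Ffar2 was found in cluster 5 of library 1-2 alone (5.80 CPM), Zbtb46 in library 1-1 alone (4.34 CPM) and the T and NK cell list in library 2-2 alone (2.52 CPM). In cluster 4, Vcan was found in library 2-2 alone (1.59 CPM), and library 1-2 alone held Inhba (3.50 CPM), Arg1 (2.33 CPM), Arg2 (5.83 CPM) and Pdpn (8.16 CPM). Gpnmb stood out in cluster 4 of library 1-2 at 11.7 CPM, with the others at 1.80 or less. The B cell list was highest in cluster 4 of library 1-2, at 18.6 CPM against 4.47 to 6.37. Ddr1 was high in cluster 4 of library 1-1 at 120.7 CPM, with the others between 42.97 and 47.8, and Ctnnd2 at 71.5 CPM, with the others between 46.7 and 50.9. The toll-like receptor list was low in cluster 4 of library 1-1, at 863 CPM against 1186 to 1225. Library 1-1 had 19 cells in each cluster.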

How the results depend on the processing

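Against 710 genes higher and 614 lower, DESeq2 called 223 and 124, and cells thinned to 1000 UMIs (1790 genes tested) gave 247 and 214. Leaving out each library or biological replicate gave 291 to 687 higher and 173 to 566 lower. The counts moved by over 1.5 times without library 1-2 (407 and 225), without replicate 1 (400 and 299) and without replicate 2 (291 and 173). These fits tested 5086, 5076 and 4445 genes, beside 6833 in the main fit. With DESeq2 the members called higher were 7 of the classical monocyte list, 3 C-type lectins, 7 Fc receptor and ITAM genes, 6 complement and coagulation genes and 7 lipid genes. At 1000 UMIs 7 cDC2 members were called lower, and 9 Fc receptor and ITAM genes, 6 complement genes and 7 lipid genes higher. Leaving out a library or replicate gave 3 to 5 C-type lectins, 8 to 15 Fc receptor and ITAM genes, and 6 to 11 complement genes called higher, while the class II list had 11 members lower in each such fit. Without the replicate block 668 genes were higher and 563 lower, 1200 of the 1324 calls were kept, and 8 of the 11 classical monocyte members called higher passed. The causes were not tested. Of 1565 pairs of a named gene and a setting, 1538 kept their side of the threshold, 22 lost the call, 5 gained one and 0 were called in the opposite direction. Pairs in which the setting did not test the gene or gave no adjusted p are not among the 1565. C1qa lost its call in 6 settings and Lpl gained one in 4.

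With 2 replicates and 1 residual degree of freedom the spread is borrowed across genes. The clusters were drawn from the counts compared here, so the p-values are too small. Depth limits the genes with few UMIs, and a gene without a UMI in a cell is not shown to be silent there.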

Other observations

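Of 11 genes of prostaglandin and leukotriene synthesis tested, 2 were higher in cluster 5 (18.2%) and 1 lower (9.09%). Over all genes tested the shares were 10.4% and 8.99%, so the share lower was close to that of all genes. Pla2g7, which encodes the phospholipase that inactivates platelet-activating factor, was at 214 ± 41.7 CPM in cluster 5 and 43.2 ± 2.21 in cluster 4 (log2 fold change 2.30 ± 0.17, adjusted p = 2.1e-07), and Ptgs2, cyclooxygenase 2, at 622 ± 149.5 and 316 ± 80.8 (log2 fold change 0.97 ± 0.11, adjusted p = 1.1e-05). With cells thinned to 1000 UMIs Ptgs2 had a log2 fold change of 0.22 and an edgeR adjusted p of 0.584. Among 20 cytoskeletal genes, 6 were higher (30%) and 3 lower (15%). Capg, an actin-capping protein, was at 418 ± 31.2 against 128 ± 18.8 CPM (log2 fold change 1.70 ± 0.13, adjusted p = 3.63e-07), and Lsp1, a leukocyte actin-binding protein, at 461 ± 10.1 against 910.3 ± 26.1 (log2 fold change -0.99 ± 0.10, adjusted p = 4.98e-06). The lactate exporter gene Slc16a3, of the glycolysis list, was at 97 ± 21.7 against 21.6 ± 0.482 CPM (log2 fold change 2.14 ± 0.23, adjusted p = 9.76e-06), while Ldha, lactate dehydrogenase A, did not pass (log2 fold change -0.04 ± 0.11, adjusted p = 0.859).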
